A study of Mus musculus with 51 samples.

Results

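The mesenchymal transition factors described here are 8 genes taken by name: the transcription factors Zeb1, Zeb2, Snai1, Snai2, Twist1 and Twist2, and the structural genes Vim and Cdh2. Every probe set that the array annotation gives to a single one of these symbols was included, which made 19 of 34944 single-symbol probe sets and 8 of 18192 genes. Zeb1 had 4 probe sets, Zeb2 had 5, Vim had 3, Snai2 and Cdh2 had 2 each, and the other genes had 1. All 19 passed the filter on dim probe sets. Values are log2 intensities with a floor at 5, below which no level was measured, and each gene is described first by its brightest probe set over all arrays, called the leading one.

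The mice carried Wap-Cre, in which a milk protein promoter drives the recombinase in mammary epithelium, a conditional Etv6-NTRK3 knockin allele that encodes a fusion of an ETS factor with a receptor tyrosine kinase, and the Rosa-Stop-lacZ reporter that marks cells in which Cre has acted. RNA was hybridized to 51 Affymetrix MOE430.2 arrays in 6 groups. Sorted lacZ+ cells came from hyperplastic glands (4 mice), from primary tumors (8 tumors of 6 mice) and from tumors transplanted into RAG2-/- recipients (7 tumors of 5 mice of origin, at passages 1 to 4). The unsorted tissues were 22 primary tumors of 14 mice on 23 arrays, 4 tumors of 2 mice of origin grown in RAG2-/- recipients, and mammary glands of 5 wild-type mice. RAG2-/- hosts lack mature B and T cells but keep their other stroma, vessels and myeloid cells. Ages and the stage of the glands are not given in the labels. Both arrays of tumor CR115 correlated at r = 0.987 and were averaged, which left 50 replicates.

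Array medians lay between 42.9 and 57.8 intensity units. Luminal epithelial markers (Krt8, Krt18, Krt19, Epcam, Cdh1, Cldn3) were bright in every group, with median summed intensities from 16107 in sorted hyperplasia to 24540 in unsorted transplanted tumors. The sorted groups also held other cells' transcripts: in sorted hyperplasia the 8 fibroblast markers summed to 14845 to 22348 and the 6 macrophage markers to 9318 to 23337, and in sorted primary tumors to 1731 to 28614 and 2997 to 18451. None of these markers was at the floor on every array of either group. Spike-in controls were bright on hyperplasia replicates 1 and 2, and the 3' to 5' signal ratio of Gapdh, a measure of RNA integrity, was high in gland replicate 4 (1.139 on the log2 scale).

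Epithelial to mesenchymal transition is the loss of cell junctions and apical polarity in epithelial cells with a gain of migratory, fibroblast-like properties. ZEB factors (zinc finger and homeodomain proteins) and SNAIL factors (zinc finger proteins) bind E-box sequences in promoters of E-cadherin and other junction genes and repress them with co-repressors such as CtBP, histone deacetylases and LSD1, whereas TWIST factors are basic helix-loop-helix proteins that act as dimers with E proteins. Vimentin is the intermediate filament and N-cadherin the adhesion molecule usually read as their mesenchymal output. In the normal mammary gland the same genes have other homes: Snai2 is expressed in basal and myoepithelial cells together with p63, Zeb2 in macrophages and other leukocytes, Zeb1, Twist1 and Twist2 in fibroblasts, and Vim in fibroblasts, endothelium, leukocytes and some basal cells.

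Unsorted primary tumors were compared with wild-type glands, which asks how tumor tissue differs from normal tissue. Of the 19 probe sets 14 were lower in the tumors and none was higher, in limma's test with Benjamini-Hochberg adjustment over 27537 probe sets. Of all probe sets tested 22.1% were lower and 26.6% higher at the same threshold of 0.05. The lower probe sets belonged to Zeb1 (4 of 4), Zeb2 (2 of 5), Snai2 (2 of 2), Twist1 (1 of 1), Vim (3 of 3) and Cdh2 (2 of 2), and no probe set of Snai1 or Twist2 passed the test. Cdh2 by 1449244_at was above the floor in 4 of 5 glands, in 1 of 22 unsorted primary tumors and elsewhere only in 1 sorted primary tumor. It passed the filter largely through the glands, the group where it was high, so its call is no separate support. The median difference over the 19 was -0.93 on the log2 scale, against 0.067 over all probe sets. The groups did not overlap at all for 3 of the 19, a pair of Zeb1 probe sets and that of Twist1, against 7.13% of all probe sets that were lower without overlap. In bulk samples such as these, fewer cells of a type and less RNA per cell cannot be told apart.

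**Figure D1:**
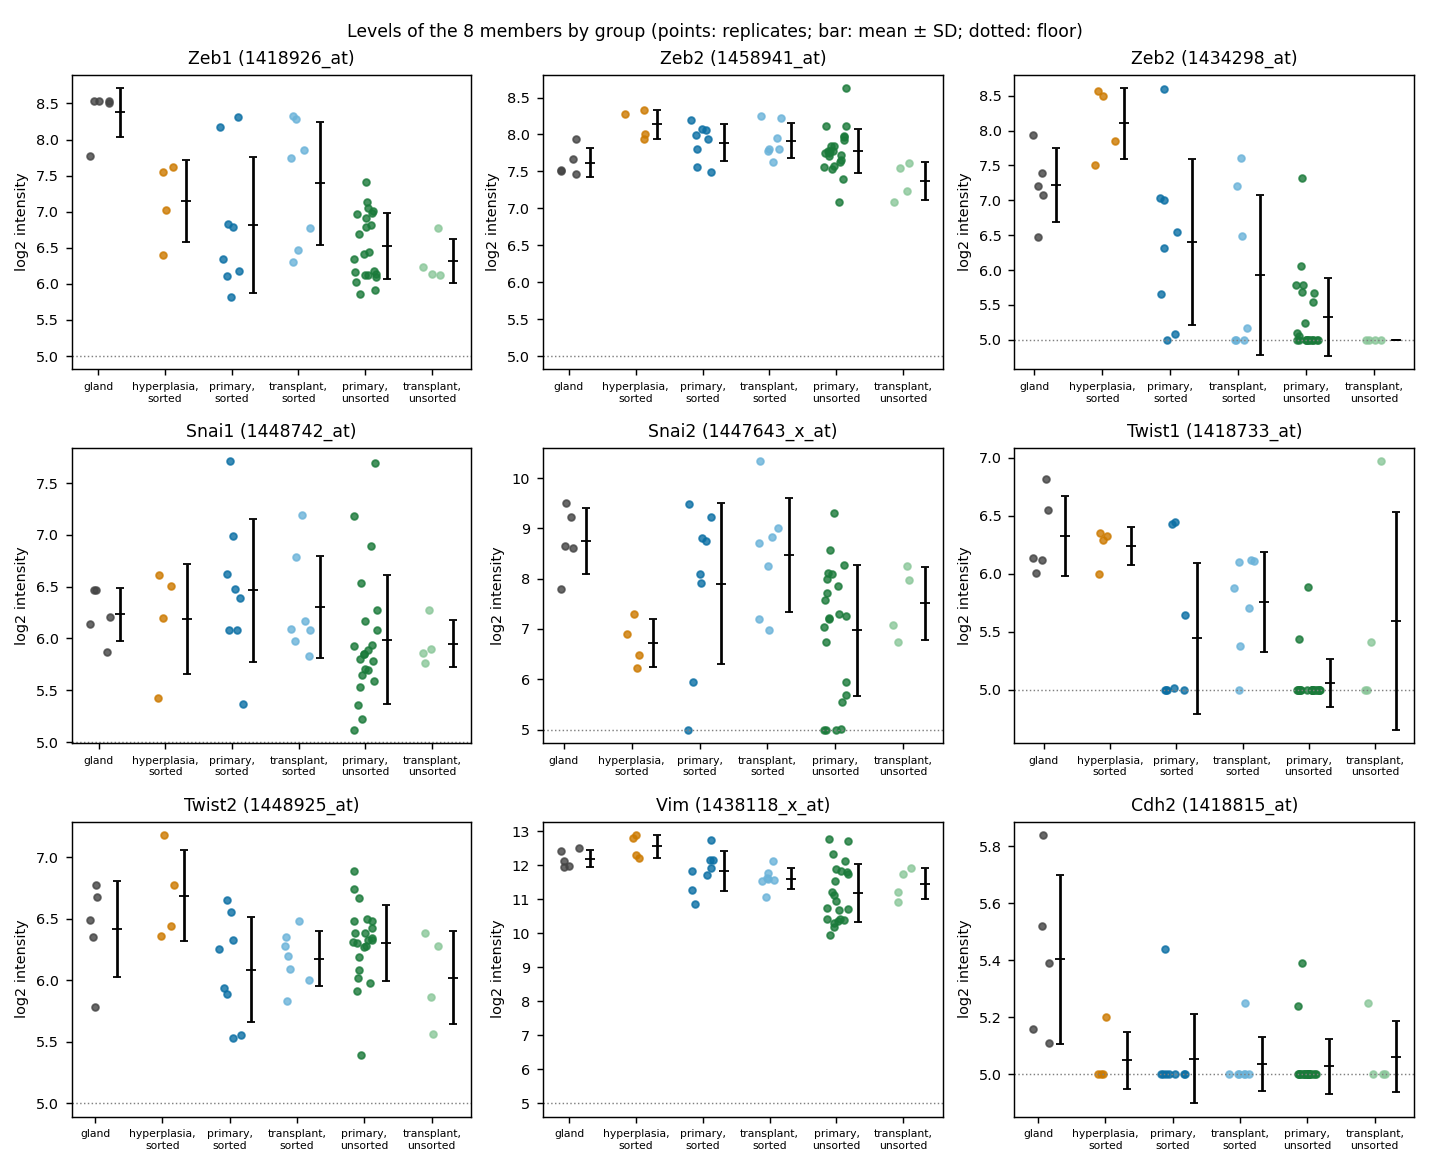
Log2 intensity of the 8 genes by group, with 2 probe sets for Zeb2; each panel has its own vertical scale, points are replicates, bars are the mean ± SD, and the dotted line is the floor at 5. Zeb1 in the 5 glands lies at 7.77 to 8.54, above all 22 unsorted primary tumors, while Snai2 spans 5.00 to 9.30 in those tumors.

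Zeb1 read 8.54, 8.51, 7.77, 8.53 and 8.53 in the 5 glands and 5.86 to 7.41 in the 22 tumors, with a median of 6.43. Every tumor lay below every gland. The fitted difference was -1.87 ± 0.30 (SE), 3.65-fold, with an adjusted p of 1.53e-06 in limma, and the other 3 probe sets of Zeb1 differed by -0.77 to -1.78. One of them, 1446127_at, was at the floor in 18 of 22 tumors and highest in both tumors of mouse D14 (6.63 and 7.17), so that these overlapped the glands at 6.44 to 7.98.

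For Zeb2 the probe sets disagreed. Its leading one, 1458941_at, derives from an expressed sequence tag and hardly varied, with means of 7.78 ± 0.30 (SD, n = 22) in the tumors and 7.61 ± 0.20 (SD, n = 5) in the glands, and it did not pass the test (difference 0.12 ± 0.14 SE, adjusted p = 0.497 in limma). The probe set 1434298_at read 7.20, 7.94, 7.07, 6.47 and 7.39 in the glands and was at the floor in 12 of 22 tumors, with 1 tumor, C117T6, at 7.32 inside the glands' range. That difference was -1.94 ± 0.38 with an adjusted p of 4.31e-05 in limma. Another, 1422748_at, differed by -0.86 ± 0.47 (adjusted p = 0.13 in limma), and without gland replicate 4, which read 5.10 there, by -1.24 with an adjusted p of 0.0416.

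Snai2, the SNAIL factor of basal epithelium, read 8.64, 7.80, 9.23, 9.5 and 8.61 in the glands and from 5.00 to 9.30 in the tumors, with a median of 7.24. The tumors ran from undetected to as bright as the glands, so the groups overlapped widely. The difference was -1.73 ± 0.63 (adjusted p = 0.0213 in limma) and that of the second probe set was -1.49 ± 0.53 (adjusted p = 0.0182), and the call for the leading probe set was lost without gland replicate 3 (-1.61, adjusted p = 0.0558) or 4 (-1.54, adjusted p = 0.0704). The related factor Snai1 had a mean of 5.99 ± 0.62 (SD, n = 22) in tumors and 6.23 ± 0.25 (SD, n = 5) in glands, a difference that did not pass the test (-0.30 ± 0.28 SE, adjusted p = 0.399 in limma).

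Twist1 was above the floor in all 5 glands, at 6.82, 6.14, 6.12, 6.55 and 6.01, and at the floor in 20 of 22 tumors. The highest tumor, C117T6 at 5.89, was below the lowest gland. The difference was -1.27 ± 0.22 with an adjusted p of 4.54e-06 in limma, and it rests on dim values: with the floor at an intensity of 100 it was -0.03 (adjusted p = 0.439). Twist2 had means of 6.30 ± 0.31 (SD, n = 22) in tumors and 6.41 ± 0.39 (SD, n = 5) in glands and did not pass the test (-0.16 ± 0.18 SE, adjusted p = 0.48 in limma).

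Vim was far above the floor in every sample. It read 12.11, 12.51, 11.96, 11.95 and 12.42 in the glands and 9.94 to 12.78 in the tumors, with a median of 11.03. Most tumors were below the glands, but both tumors of mouse D14 (12.71 and 12.78) were above all of them. The difference was -1.10 ± 0.31 (adjusted p = 0.00322 in limma), with -1.28 and -1.25 for the other probe sets. Cdh2 was close to the floor throughout: it read 5.11, 5.39, 5.52, 5.16 and 5.84 in the glands, was at the floor in 20 of 22 tumors, and differed by -0.38 ± 0.08 (adjusted p = 0.00017 in limma), a size bounded by the floor. In each of the other groups this probe set was above the floor on 1 array only, at 5.44 or less.

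**Figure D2:**
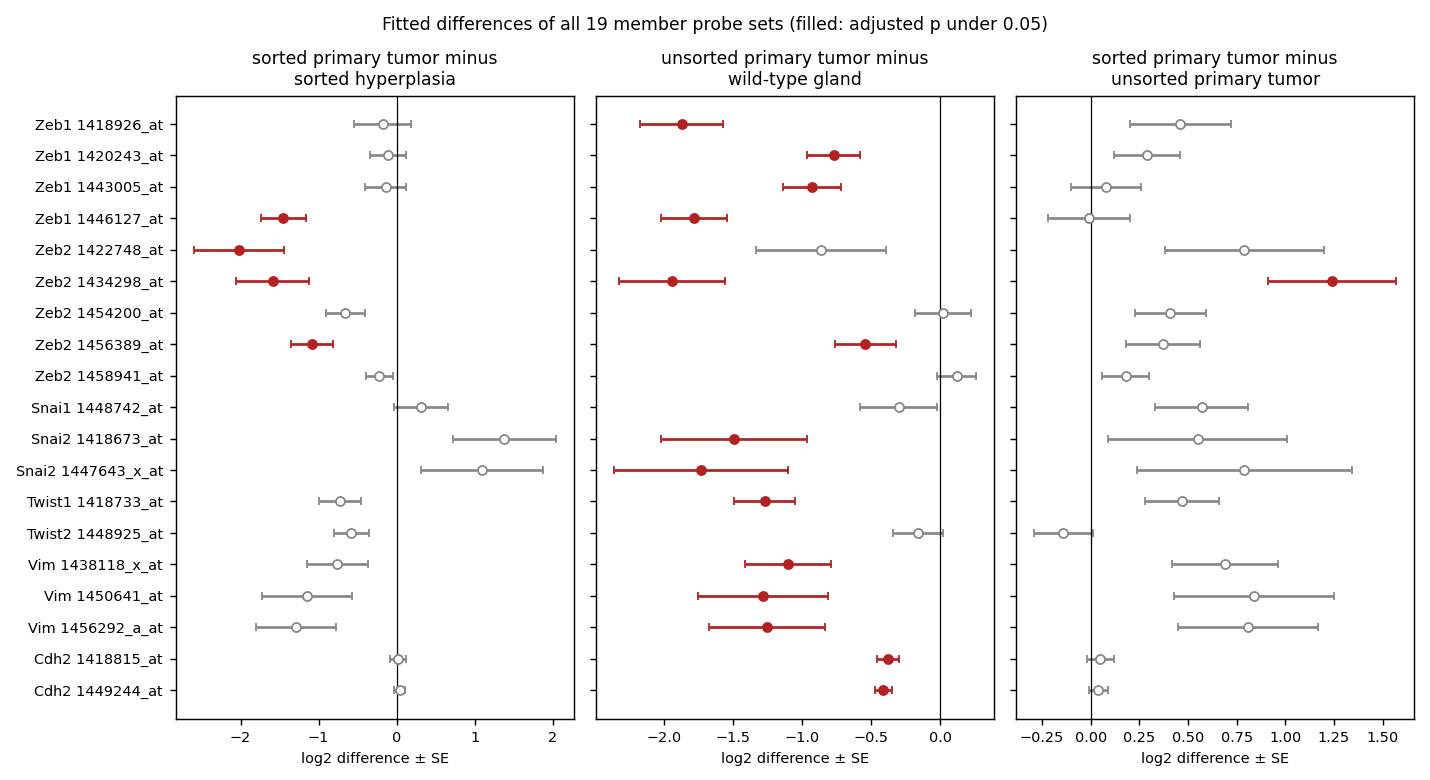
Fitted log2 differences ± SE of all 19 probe sets in 3 comparisons, filled red where the adjusted p was under 0.05; each panel has its own horizontal scale. In tumor against gland 14 are filled and all of these lie below 0, in sorted tumor against hyperplasia 4 and in sorted against unsorted tumor 1.

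Most markers of fibroblasts and endothelium moved the same way. Between unsorted tumors and glands 7 of 8 fibroblast markers were lower and 1 higher, with median sums of 2454 (range 580 to 25946) in tumors and 21335 (17842 to 29083) in glands, and 8 of 8 endothelial markers were lower (532 against 3225). Of the 6 myoepithelial markers 3 were lower (4329 against 9697), and of the 6 macrophage markers 2 were lower (2512 against 5152). The 3 pan-leukocyte markers did not move with them: 0 were called, with a median difference of 0.14 (572 against 621). Their part in the difference of the 8 genes was not tested.

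Of all probe sets 26.6% were higher and 22.1% lower in unsorted tumors than in glands, and the counts of the pathway lists are read against these shares. Of 18 measured partners and mesenchymal targets 9 were lower and 2 higher in unsorted tumors than in glands, with a median difference of -1.18. The fibrillar collagens Col3a1 (-2.83 ± 0.66, adjusted p = 0.00037 in limma) and Col5a2 (-2.43 ± 0.50) led the falls, and the mesenchymal homeobox gene Prrx1 fell by 2.31 on the log2 scale from 8.10 to 5.83 with no overlap. Tcf3, which encodes the E protein E2A that pairs with TWIST and itself binds E-boxes, went the other way, from 6.54 ± 0.62 (SD, n = 5) in glands to 8.16 ± 0.30 (SD, n = 22) in tumors, with every tumor above every gland (1.62 ± 0.20, adjusted p = 1e-08 in limma). The ligand Tgfb1, the best known inducer of the program, was also higher in tumors (1.28 ± 0.26). Of 11 measured co-repressors and partners of SNAIL and ZEB 7 were higher and none lower, with Hdac2 (1.89 ± 0.38), Ctbp2 (1.21 ± 0.20) and Ajuba (1.20 ± 0.39) the largest.

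Epithelial genes were mostly level or higher in the tumors. Among 17 junction and polarity genes 7 were higher and 3 lower: the small GTPase gene Rab25 (1.81 ± 0.25) and the claudins Cldn7 (1.66 ± 0.33) and Cldn3 (1.64 ± 0.28) rose, whereas Patj, a scaffold of the Crumbs polarity complex (-1.79 ± 0.29), Cldn4 (-1.38 ± 0.57) and Marveld3 (-0.45 ± 0.15) fell. Cdh1, which encodes E-cadherin and is the classical target of all these repressors, had means of 10.88 ± 0.51 (SD, n = 22) in tumors and 10.54 ± 0.31 (SD, n = 5) in glands and did not pass the test (0.34 ± 0.24 SE, adjusted p = 0.255 in limma). It was bright in all 6 groups, between 9.54 and 11.97 on every array. Of 12 epithelial transcription and splicing regulators 6 were higher, led by the ETS factors Ehf (1.55 ± 0.47) and Elf5 (1.41 ± 0.46) and by Grhl1 (1.39 ± 0.32), and Foxa1, a factor of hormone-sensing luminal cells, was lower (-1.92 ± 0.48). Among 5 other cadherins and catenins the endothelial cadherin Cdh5 fell by 2.91 on the log2 scale without overlap and Ctnnd1 rose by 1.12, and of 9 other intermediate filament genes Nes (-0.98 ± 0.17) and Lmna (-0.98 ± 0.19) were lower and Des (0.63 ± 0.24) higher. Without gland replicate 4, Des, Ajuba, Suz12, Epcam, Jup and Elf3 were no longer called.

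**Figure D3:**
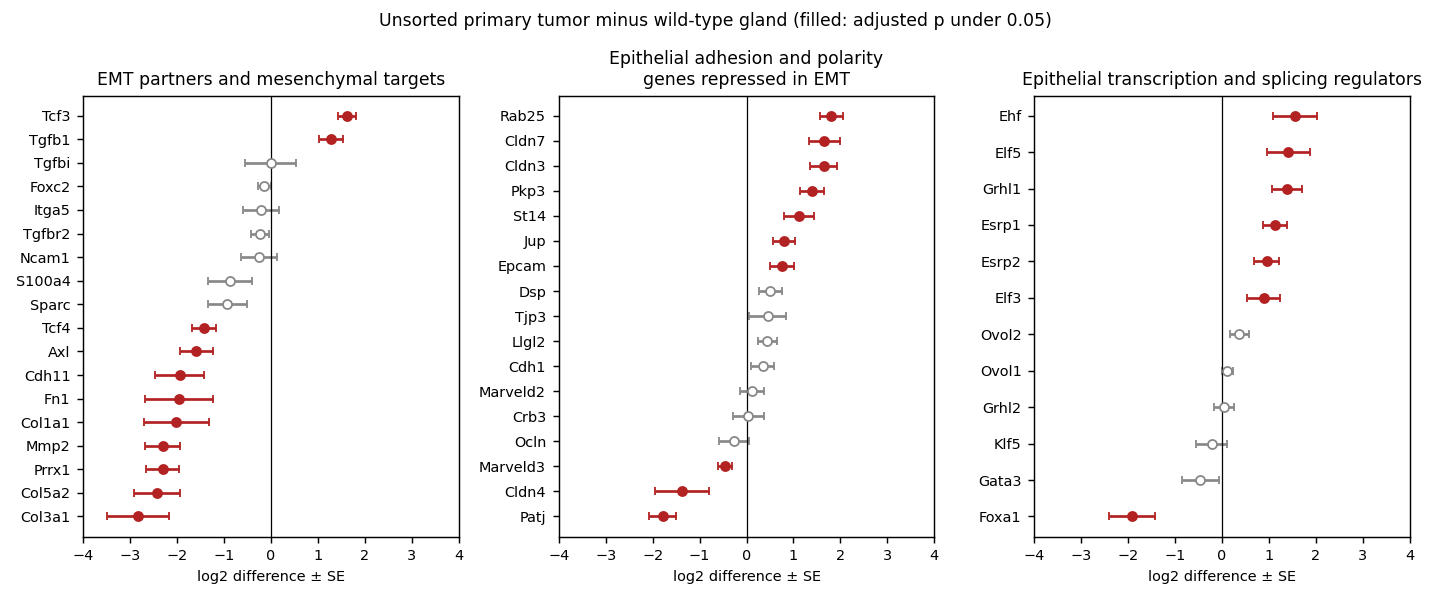
Fitted log2 differences ± SE between unsorted primary tumors and glands for the genes of 3 lists, filled red where the adjusted p was under 0.05. Collagens, Prrx1 and Mmp2 lie below -2, Tcf3 and Tgfb1 above 1, and Cdh1 and Crb3 near 0.

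E-box sequences are where these factors are known to bind, so the promoters of 4 junction genes are shown: 3 that were higher in tumors and Crb3, a polarity gene that was not called (0.04 ± 0.33, adjusted p = 0.931 in limma). Each run is 300 bases, most of them upstream of the annotated start and the rest past it. Runs are written 5′ to 3′ on the gene's strand, from RefSeq on GRCm38.p6. Each CACCTG or CAGGTG, which are the same E-box read on either strand, is in capitals.
Rab25, chr3:88548230-88548529, minus strand: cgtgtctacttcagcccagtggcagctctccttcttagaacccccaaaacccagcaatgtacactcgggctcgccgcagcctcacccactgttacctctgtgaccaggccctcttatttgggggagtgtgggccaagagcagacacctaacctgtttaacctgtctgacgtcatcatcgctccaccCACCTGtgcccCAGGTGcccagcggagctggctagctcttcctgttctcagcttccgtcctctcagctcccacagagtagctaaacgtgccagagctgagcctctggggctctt
Cldn7, chr11:69965171-69965470, plus strand: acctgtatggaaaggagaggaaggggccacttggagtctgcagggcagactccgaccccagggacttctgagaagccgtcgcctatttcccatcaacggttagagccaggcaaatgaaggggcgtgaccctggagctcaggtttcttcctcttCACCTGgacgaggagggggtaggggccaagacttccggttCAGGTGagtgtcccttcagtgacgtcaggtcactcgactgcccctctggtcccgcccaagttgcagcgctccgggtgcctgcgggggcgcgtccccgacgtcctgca
Cldn3, chr5:134985964-134986263, plus strand: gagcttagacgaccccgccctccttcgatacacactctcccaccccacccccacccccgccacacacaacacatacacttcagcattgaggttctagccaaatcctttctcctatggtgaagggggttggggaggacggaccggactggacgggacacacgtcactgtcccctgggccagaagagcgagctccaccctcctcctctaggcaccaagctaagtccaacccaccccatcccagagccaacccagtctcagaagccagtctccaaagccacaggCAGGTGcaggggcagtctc
Crb3, chr17:57061951-57062250, plus strand: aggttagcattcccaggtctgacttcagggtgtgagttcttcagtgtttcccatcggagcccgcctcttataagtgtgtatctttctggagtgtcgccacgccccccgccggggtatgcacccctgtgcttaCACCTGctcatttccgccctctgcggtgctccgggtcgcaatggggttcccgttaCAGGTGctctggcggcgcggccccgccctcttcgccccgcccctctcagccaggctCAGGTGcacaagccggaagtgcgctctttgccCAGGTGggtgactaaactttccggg
Crb3 holds 4 copies of the motif, Rab25 and this start of Cldn7 hold 2 each and Cldn3 holds 1, and another annotated start of Cldn7 holds none. The copy in Cldn3 begins past the annotated start, at base 32, as does 1 copy in Crb3, at base 26. Of all 32851 promoters of this length 20.2% hold at least 1 copy, whereas it was found in 15 of 19 promoters (78.9%) of 12 genes of the junction list, in 4 of 8 promoters of the epithelial regulators, in 1 of 11 promoters of the mesenchymal targets and in 1 of 8 promoters of 5 of the 8 genes, that of Snai1. The sequence table held no promoter used here for the other genes of these lists, and several starts of a gene can overlap. A match is a description of the letters and is no evidence of binding, and both unchanged and changed genes held it.

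Sorted lacZ+ cells of primary tumors were compared with those of hyperplasia, the early lesion. The hyperplastic glands and the tumors came from different mice. Of the 19 probe sets 4 were lower in the tumors and none was higher, against 2.12% lower and 0.926% higher of all probe sets, and the median difference was -0.58 against 0.008. The 4 were 3 probe sets of Zeb2 and 1 of Zeb1. Zeb2 by 1422748_at read 8.62, 9.37, 7.82 and 8.54 in the 4 hyperplasia samples and 5.00 to 8.52 in the 8 tumors, with a median of 6.70. Only the tumor of mouse G294, at 8.52, reached into the range of the hyperplasia samples. The difference was -2.02 ± 0.58 (adjusted p = 0.041 in limma), with -1.59 ± 0.47 (adjusted p = 0.0499) for 1434298_at and -1.08 ± 0.27 (adjusted p = 0.015) for 1456389_at. The Zeb1 probe set 1446127_at read 7.43, 6.86, 5.65 and 6.56 in hyperplasia, was at the floor in 6 of 8 tumors, and differed by -1.45 ± 0.29 (adjusted p = 0.00173 in limma).

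These calls rest on few samples. Without hyperplasia replicate 1, which has the brightest spike-in controls, none of the 19 was called: Zeb2 by 1422748_at then differed by -2.01 (adjusted p = 0.176 in limma) and Zeb1 by 1446127_at by -1.18 (adjusted p = 0.0539). Without hyperplasia replicate 2, 1 was called, and without sorted primary tumor replicate 1, 3, 6 or 8 in turn, 2 were. The leading Zeb1 probe set, in contrast, had means of 7.15 ± 0.56 (SD, n = 4) and 6.82 ± 0.94 (SD, n = 8) and did not pass the test (-0.18 ± 0.37 SE, adjusted p = 0.866 in limma). Markers of blood cells were brighter in the hyperplasia samples: the pan-leukocyte genes Ptprc, Laptm5 and Coro1a summed to a median of 4441 there and 1506 in sorted tumors, the macrophage markers to 17800 and 6396, the B and plasma cell markers to 4205 and 158, and the fibroblast markers to 18714 and 3028. Of these markers 3 of 8 fibroblast, 3 of 3 B and plasma cell, 1 of 6 macrophage and none of 3 pan-leukocyte genes were called lower, as were 3 of 8 endothelial and 1 of 6 myoepithelial markers. Their part in the fall of Zeb2 was not tested.

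No other member passed the test in this comparison. Snai2 was the only factor with a fitted rise of more than 1, with hyperplasia at 6.22, 7.30, 6.91 and 6.48 and tumors from 5.00 to 9.49 with a median of 8.42. In 6 of the 8 tumors it lay above every hyperplasia sample, and in those of mice F464 (5.94) and G421 (5.00) below all of them. The difference of 1.09 ± 0.78 did not pass the test (adjusted p = 0.515 in limma), nor did that of the second probe set (1.38 ± 0.66, adjusted p = 0.279). Vim had means of 12.55 ± 0.33 (SD, n = 4) in hyperplasia and 11.83 ± 0.58 (SD, n = 8) in tumors (-0.76 ± 0.39 SE, adjusted p = 0.314), Twist1 fell short of the threshold at -0.73 ± 0.27 (adjusted p = 0.134) and Twist2 at -0.58 ± 0.22 (adjusted p = 0.142). Snai1 differed by 0.31 ± 0.35 and Cdh2, at the floor in 7 of 8 tumors, by 0.02 ± 0.10.

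Some junction genes were higher in sorted primary tumors than in sorted hyperplasia, by calls that rest on the same hyperplasia sample. The desmosomal plaque gene Dsp went from 9.30 ± 0.90 (SD, n = 4) to 10.71 ± 0.21 (SD, n = 8) without overlap (1.36 ± 0.31 SE, adjusted p = 0.00699 in limma) and Jup, which encodes plakoglobin, rose by 1.08 ± 0.29, the called genes among 17. The basal P-cadherin gene Cdh3 rose by 1.73 ± 0.47 from 5.42 to 7.24. Among the 18 partners and mesenchymal targets Ncam1 rose (1.60 ± 0.46, adjusted p = 0.043, no overlap) and S100a4, a calcium-binding protein gene of fibroblasts and leukocytes, fell (-2.0 ± 0.57, adjusted p = 0.0411). Without hyperplasia replicate 1 none of these 5 genes was called. No regulator, co-repressor or intermediate filament gene of the lists passed the test with all samples. Cdh1 differed by 0.33 ± 0.30 (adjusted p = 0.624).

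Sorted cells of primary tumors were compared with unsorted primary tumors. The tumors of both groups came from different mice, so the sort and differences between tumors cannot be told apart. Of the 19 probe sets 1 was higher in sorted cells and none lower, against 10% higher and 14.4% lower of all probe sets. The 1 was Zeb2 1434298_at, which read 6.31, 7.0, 7.03, 8.59, 6.54, 5.08, 5.65 and 5.00 in the sorted tumors and had a median of 5.00 in the unsorted ones. Most sorted tumors were above the floor and most unsorted tumors at it, with overlap. The difference was 1.24 ± 0.33 (adjusted p = 0.00493 in limma). The macrophage markers were higher with it in sorted cells (5 of 6 called, median sums 6396 and 2512), as was 1 of 3 pan-leukocyte markers (1506 and 572), and 2 of 8 fibroblast markers (3028 and 2454), and their part in it was not tested. Vim, at 0.69 ± 0.27 (adjusted p = 0.0565), Twist1, at 0.47 ± 0.19 (adjusted p = 0.0669), and Snai1, at 0.57 ± 0.24 (adjusted p = 0.0835), lay just outside the threshold. Single tumors moved the count: without the tumor of mouse E344 or that of G421 in turn, 4 of the 19 were called higher, and without that of F464, 2 were.

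Several epithelial genes differed between sorted and unsorted tumors. Of the 17 junction genes 6 were lower and 2 higher in sorted tumors, with Rab25 at -1.08 ± 0.22, Cldn7 at -1.10 ± 0.28 and Cldn3 at -1.04 ± 0.24, and Cldn4 at 1.88 ± 0.50 on the other side. Tcf3 was also lower in sorted tumors (-1.10 ± 0.18, adjusted p = 9.46e-06 in limma, no overlap). These values share the unsorted tumors with the comparison against glands, so the signs in the 2 comparisons are not independent of each other. Of 12 regulators 4 were lower, with Ehf at -1.63 ± 0.40, and Foxa1 was higher by 2.23 ± 0.41.

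No change of the 8 genes with transplantation was detected. In sorted cells 0 of 19 probe sets and 0 of all 27537 were called between transplanted and primary tumors in limma (0% background). In unsorted tissue 0 of 19 were called, against 1.13% of all probe sets. The difference between both transplant effects gave 0 of 19 as well, against 0.131% of all probe sets. Within sorted and within unsorted tissue the fitted differences farthest from 0 in each direction were 0.90 ± 0.54 for Vim 1450641_at in unsorted tissue and -0.77 ± 0.54 for Zeb2 1422748_at there, neither called. The difference between both transplant effects reached -0.83 ± 0.71 for Vim 1450641_at, also not called. Twist1 was uneven among the unsorted transplants, at 5.41 and 6.97 in those from mouse CR90 and at the floor in both from CR115.

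Some tumors could be followed from the primary to its transplants. In tumor 1 of mouse D279 the unsorted primary read 8.27 for Snai2, the sorted passage 2 10.33 and the sorted passage 4 8.26, while the p63 gene Trp63 read 8.31, 10.10 and 8.36. Snai2 and Trp63 moved together over these 3 arrays. In tumor 4 of mouse F433 the sorted primary and its sorted passage 1 read 8.80 and 9.0 for Snai2, 5.82 and 6.31 for Zeb1, and 6.38 and 5.00 for Zeb2 by 1422748_at. In mouse CR115 the unsorted primary tumor read 7.72 for Snai2 and the unsorted transplants 7.98 and 8.25. Each of these is a single lineage without replication.

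Tumors of 1 group differed from each other in several of the factors. Snai2 in 22 unsorted primary tumors ran from the floor to 9.30. In some mice the tumors differed widely: tumors L and U of mouse B459 read 5.02 and 8.57, and the 4 tumors of C117 read 5.00, 5.00, 8.0 and 8.12. In others they were close, with ranges of 0.25 in D14, 0.28 in C395 and 0.65 in D254, and of 1.75 in D206. In the same order Trp63 read 5.20 and 8.05 in B459, and 5.00, 5.05, 8.55 and 7.89 in C117. Tumors with Snai2 at the floor thus had Trp63 at or near it, and those with Snai2 at or above 8.0 had Trp63 at or above 7.89.

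Over the means of the 14 mice with unsorted primary tumors the genes most like Snai2 were Trp63 (Pearson r = 0.96, Spearman rho = 0.93), the basal keratin Krt17 (r = 0.95) and the GDNF family receptor gene Gfra1 (r = 0.94), selected as the highest among all tested genes. The mean of 6 myoepithelial markers, of which Trp63 is one, gave r = 0.96. In the 8 mice with sorted tumors that had no unsorted primary array, which the selection had not used, Snai2 gave r = 0.92 with Trp63, 0.81 with Krt17 and 0.82 with the marker mean. Without the 2 mice farthest from the median of Snai2 these were 0.69, 0.36 and 0.57, so the relation in sorted tumors rests in part on mice with extreme values. By the second Snai2 probe set, 1418673_at, the 3 most alike genes over the 14 mice were others: Cd109, Macrod1 and Col17a1 (r = 0.94, 0.92 and 0.91). All such values are descriptions, since the means of a mouse come from whole arrays of mixed cells and the points differ in the cells they hold.

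**Figure D4:**
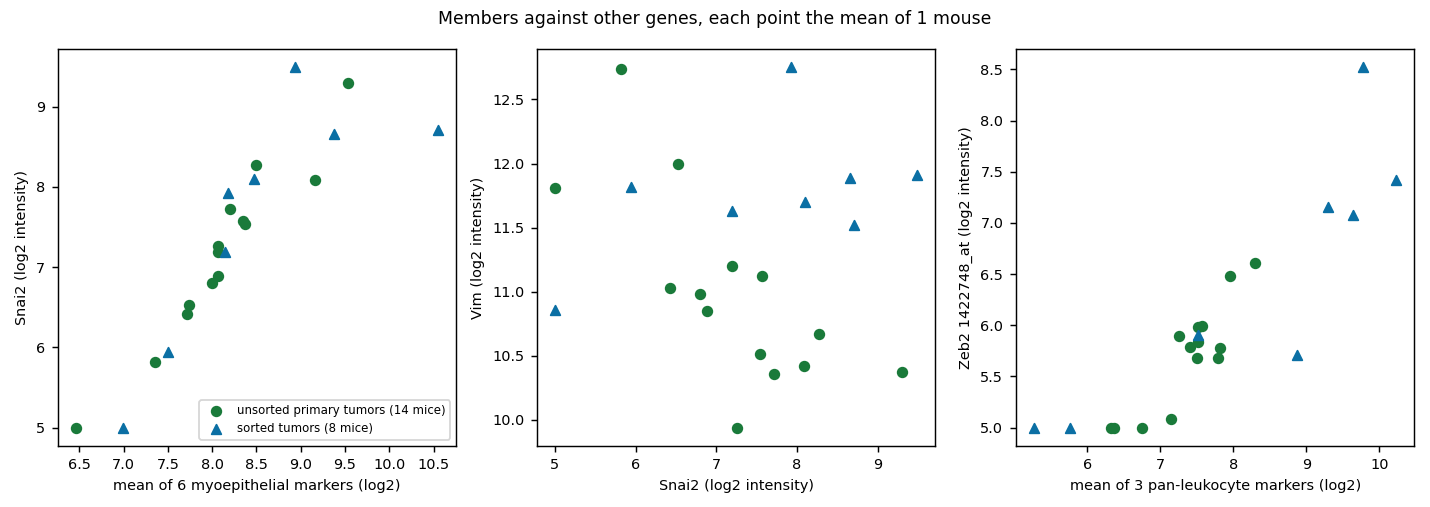
Mean log2 intensity of 1 mouse per point: Snai2 against 6 myoepithelial markers, Vim against Snai2, and Zeb2 by 1422748_at against 3 pan-leukocyte markers, for 14 mice with unsorted primary tumors (circles) and 8 other mice with sorted tumors (triangles). Snai2 rises with the myoepithelial mean in both sets, and Vim falls with Snai2 among the circles.

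Zeb2 followed other genes. By 1422748_at the most alike were Gngt2, C1qb and Rac2 (r = 0.96, 0.93 and 0.92 over 14 mice), of which C1qb encodes a complement component of macrophages and Rac2 a GTPase of blood cells, and the pan-leukocyte mean gave r = 0.89. In the 8 mice with sorted tumors the same genes gave r = 0.88, 0.82 and 0.81 and the pan-leukocyte mean 0.87 (0.89 without the 2 farthest mice). The flat probe set 1458941_at had none of these among its nearest genes, which were Serpinb9b, Krtap13-1 and Cog8. Zeb1 was most like Kdelr1 (r = 0.91), Cep120 (0.84) and Kif3c (0.83), and gave r = 0.66 with Zeb2 by 1422748_at. Its correlation with the fibroblast marker mean was 0.14. The Zeb1 probe sets 1420243_at and 1443005_at were most like other genes, Prrt3 and Eml6 (r = 0.91 for each).

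Vim did not follow the factors as a group. Over the 14 mice it gave r = 0.80 with Snai1, which became 0.47 without the 2 farthest mice, 0.27 with Zeb1, 0.54 with Zeb2 by 1422748_at, which became 0.00, and -0.72 with Snai2, which stayed at -0.70. Within mice the pattern was mixed. The tumors of D206 had Vim at 11.88 and 10.18 and Snai2 at 5.55 and 7.30, whereas all 4 tumors of C117 had Vim at 11.73 to 12.33 with Snai2 from the floor to 8.12. In the 8 mice with sorted tumors the relation of Vim with Snai2 was 0.49, which became 0.11 without the 2 farthest mice. The genes most like Vim were Tspo2 (r = 0.96), Gm13398 (0.93) and Tmem86a (0.91), and Tspo2 gave -0.47 in the sorted mice. Snai1 was most like Inpp4b, Agt and Sytl2 (r = 0.92 to 0.93) and Twist2 like Notum, Fbll1 and Bmp8a (r = 0.92 to 0.95), whose values without the 2 farthest mice fell to 0.52 to 0.73 for Twist2.

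In order of mean level over the 6 groups Zeb1 was highest in glands (8.38), followed by sorted transplanted tumors (7.40), sorted hyperplasia (7.15), sorted primary tumors (6.82), unsorted primary tumors (6.53) and unsorted transplanted tumors (6.32). Only the step from glands to the next group, of 0.98, was larger than the SD of both. Snai2 had no neighbouring groups that differed by more than the larger SD, from 8.76 in glands to 6.73 in sorted hyperplasia. Zeb2 by 1422748_at was highest in sorted hyperplasia (8.59), 1.95 above glands (6.64), the only step beyond the SD. Vim was highest in sorted hyperplasia (12.55), with glands 0.36 lower, just beyond the SD of 0.33, and Twist1 fell beyond it once, between sorted hyperplasia (6.25) and sorted transplanted tumors (5.76). No step of Snai1 or Twist2 exceeded the SD.

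The spread of the leading Zeb1 probe set in sorted tumors went with an array measure. The 15 sorted tumor arrays fell into 8 with a Gapdh 3' to 5' log2 ratio of -0.363 to -0.109 and 7 with one of -0.029 to 0.105. This probe set read 6.79 to 8.32 on the former and 5.82 to 6.78 on the latter, without overlap, in primary and in transplanted tumors alike. The other Zeb1 probe sets overlapped, as 1443005_at did at 5.00 to 7.03 and 5.09 to 5.88. Within the sorted primary tumors alone Twist2 also did not overlap, at 6.25 to 6.65 and 5.53 to 5.94. Nor did Twist1 there, at 5.02 to 6.45 on the former and at the floor on the latter. Of the hyperplasia arrays 3 had a ratio of -0.330 to -0.218 and 1 had 0.141. Zeb2 by 1434298_at read 5.00 to 8.59 and 5.00 to 6.54, and Snai2 5.94 to 10.33 and 5.00 to 9.0. The 7 arrays with the higher ratio include every array of mouse F433 and are the last 7 of the series in sample order. Ratio, mouse and order thus cannot be told apart here. The split was chosen after the data were seen, and its part in the values was not tested. With this ratio as a covariate, added after the data were seen, 14 of 19 probe sets were called lower in unsorted tumors than in glands and 3 lower in sorted tumors than in hyperplasia.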

How the data were processed

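The deposited values are intensities on a linear scale, 1 per probe set and array, scaled by the authors; the software, scaling and build are not given in the sources used here. Per the labels, total RNA was extracted with Trizol and labelled with biotin. Of 45101 probe sets 64 were controls, 932 had several symbols and 9160 none; 34944 with a single symbol remained, of which 34740 were named through the RefSeq gene table. One probe set with 2 extreme values was left out. Values under 32, 37.4% of all, were set to 32 and logged. Probe sets above the 40th percentile of their array on at least 4 arrays were tested (27537) in R 4.3.3 with limma 3.58.1, with all 6 groups in the fit and mouse of origin as a random block (correlation 0.363). P-values were adjusted by Benjamini-Hochberg over all probe sets tested, and calls were made under 0.05. They measure the spread between tumors, of which several share a mouse. The fit was tested on simulated data that had no floor, with differences added only to probe sets above the median level. That test therefore does not cover calls on probe sets near the floor.

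Members and lists were chosen with earlier results of these data known. Each list gene was read by its brightest probe set, and up to 3 called genes per list were named by size; others, such as Tcf3, Tgfb1 and Cldn4, were named after their values were seen. Likeness was taken for members above the floor in most unsorted primary tumors. Tables and figures were made with Python 3.11.15, pandas 2.3.3, numpy 2.4.6 and matplotlib 3.10.9. The number of arrays limits the precision.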

Additional observations from a re-analysis of the deposited data

Results flagged for a closer look

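In 12 of 95 groups of 4 to 10 samples that were examined, 1 sample lay far from the others for its range. Chance marks about 1 in 20 such groups, and most of those found here hold values at the floor. In the glands, Zeb1 by 1418926_at was lowest in replicate 3 (7.77, the next 8.51) and Zeb2 by 1422748_at in replicate 4 (5.10, the next 6.69). In sorted hyperplasia Zeb1 by 1420243_at was lowest in replicate 4 (5.00, the next 5.80). The sorted transplanted tumor F402TP2 was highest for Zeb1 by 1446127_at (5.78, the others at 5.00) and for Zeb2 by 1456389_at (6.05, the next 5.12). Among the unsorted transplanted tumors Zeb1 by 1420243_at reached 5.16 in CR115-4 and Zeb2 by 1422748_at 5.02 in CR115-3, with the others at 5.00. Cdh2 by 1418815_at was above the floor in a single sample each of sorted hyperplasia (5.20), sorted primary tumors (5.44), sorted transplanted tumors (5.25) and unsorted transplanted tumors (5.25), and by 1449244_at in a single sorted primary tumor (5.28).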

How the results depend on the processing

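Of 134 counts of called probe sets under alternatives 109 stayed within 1.5 times the count reported and 25 did not. In sorted primary tumors against hyperplasia the 4 calls became 0 with only the groups compared in the fit (15 of all probe sets called, in place of 838), with a covariate for the spike-in signal and without both hyperplasia arrays with bright spike-ins (132), and 0 of 8 with 1 probe set per gene. They became 1 with the floor at 8, with a spread for each group (341), with only sorted arrays of a low Gapdh ratio, an alternative chosen after seeing the data, and with the mean of a gene's probe sets, and 0 to 6 without 1 replicate. In unsorted tumors against glands the 14 calls became 9 of 17 with the floor at 100. They became 5 of 8 with 1 probe set per gene and 6 of 8 with the mean of a gene's probe sets. Without 1 gland in turn 12 to 14 were called. In sorted against unsorted tumors the 1 call became 0 with the floor at 100 or 1 probe set per gene and 2 with quantile normalization. It became 3 with the floor at 8 or with only the groups compared, and 1 to 4 without 1 sorted tumor in turn. Unsorted primary tumors were not left out in turn in any comparison. The transplant counts were 0 under each alternative run. Zeb2 changed sign from 0.12 to -0.64 (adjusted p = 0.0213 in limma) between tumors and glands when its 5 probe sets were averaged, of which 2 had been called lower one by one. Of 790 alternative values of single probe sets 46 lost a call and 13 gained one. The causes were not tested. No paired analysis was possible by replicate number, because replicate numbers follow the order of the samples and pair nothing. Tumors of 1 mouse of origin were tied by the random block of the reported fit instead. Primary tumors of mice D279, F433 and CR115 can be linked to their own transplants by the labels. These lineages were described singly, and a paired difference was not tested. Values at the floor have no order, which limits Twist1, Cdh2 and most Zeb2 probe sets.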
